A study of Glycine max with 12 samples.

Results

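A set of 6 genes of the soybean heat shock factor family was followed across closed flowers, 3 that the study assigned to class HSFA1 (GLYMA_01G015900, GLYMA_09G206600 and GLYMA_07G086300) and 3 assigned to class HSFA2 (GLYMA_17G227600, GLYMA_14G096800 and GLYMA_04G052000). They were chosen by identifier with earlier results of these data known, and all 6 were among the 55897 genes of the count table. Their identifiers place them on chromosomes 1, 9 and 7 for HSFA1 and on chromosomes 17, 14 and 4 for HSFA2. RNA was taken from whole unopened soybean flowers (Glycine max cv Magellan) that developed during 10 days of 1 of 4 growth chamber treatments, each with 3 biological repeats and so 12 libraries in all. Flowers from plants subjected to WD + HS (water deficit and heat stress together) received 30% of the water available for transpiration at a day temperature of 38 °C. HS plants were well watered at 38 °C, WD plants had 30% of the water at 28 °C, and control (CT) plants were well watered at 28 °C. Each repeat was a pool of 30 to 40 flowers from 8 to 10 plants.

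Heat shock factors are transcription factors that bind heat shock elements in the promoters of chaperone genes. In tomato and Arabidopsis, HSFA1 proteins are present before stress, are held inactive by chaperones and start the response once misfolded proteins draw those chaperones away. HSFA2 is a target of HSFA1 in these species, its transcripts accumulate strongly in the heat, and its protein prolongs the response and is linked to acquired thermotolerance. In flowers, the same response is known to protect developing pollen and anthers.

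Library totals ran between 14049107 and 22415845 counted reads. Levels are given as CPM, which are read counts scaled by the TMM method to a common library size, and every test named here is edgeR's quasi-likelihood test over 38410 genes with Benjamini-Hochberg adjustment, in which a gene was called at an adjusted p under 0.05. Both floral marker genes were checked against the label of the tissue. AGAMOUS-like 6 (GLYMA_16G200700), a floral MADS-box gene, averaged 8.37 ± 1.69 CPM under WD + HS, 2.91 ± 0.557 under HS, 11.1 ± 2.79 under WD and 9.88 ± 0.718 under CT (SD, n = 3 each), while TAPETUM 1 (GLYMA_18G278500) stayed at or below 2.22 CPM in all 12 libraries and did not pass the filter on low counts. Within CT alone, TAPETUM 1 ran between 0.06 and 2.22 CPM. Of the green tissue markers, the Rubisco small chain gene GLYMA_19G046600 lay between 41.0 and 190.3 CPM over all libraries, and between 42.8 and 190.3 within WD + HS alone. Rubisco activase (GLYMA_03G068100) averaged 23.1 CPM under WD + HS, 29.6 under HS, 8.73 under WD and 7.79 under CT. The part of these shifts in the levels given here was not tested, and in bulk tissue fewer cells of a type and less RNA per cell cannot be told apart. Each treatment had a chamber of its own, so that chamber and treatment cannot be told apart either.

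The HSFA2 genes changed in opposite directions under WD + HS. Against CT, GLYMA_17G227600 was 30.6-fold higher and GLYMA_14G096800 3.30-fold higher, while GLYMA_04G052000 was at 0.36 of its CT level. HS alone raised the first 2 further, and the third was not called under HS. All 3 were lower under WD + HS than under HS. Neither of the 2 HSFA1 genes that could be tested was called by edgeR in any comparison.

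GLYMA_17G227600 was the HSFA2 gene nearly silent without heat. It had 42.0, 33.7 and 48.4 CPM in the WD + HS libraries, 95.9, 82.1 and 79.0 CPM in the HS libraries, 0.14, 0.44 and 1.01 CPM in the WD libraries and 1.69, 1.68 and 0.61 CPM in the CT libraries. Every heat library lay above every library without heat, and all HS libraries lay above all WD + HS libraries. The WD values rested on 2, 8 and 15 reads and the CT values on 26, 37 and 10 reads, so that the size of the folds against WD and CT is set by few reads. Relative to CT, the log2 fold change came to 4.93 under WD + HS (SE 0.23, adjusted p = 3.51e-12 in edgeR) and 5.98 under HS (SE 0.23, adjusted p = 1.6e-13 in edgeR). Against HS, WD + HS was lower by a log2 fold change of -1.05 (SE 0.16, adjusted p = 0.000122 in edgeR), which is 0.48 of the HS level. Against WD, the log2 fold change of WD + HS was 6.27 (SE 0.28, adjusted p = 2.33e-12 in edgeR).

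Under WD alone, the same gene had a log2 fold change of -1.33 against CT (SE 0.45, adjusted p = 0.16 in edgeR), and the WD and CT libraries overlapped. The interaction of WD and HS, the change that WD made under heat minus the change it made without heat, was 0.28 on the log2 scale (SE 0.48, adjusted p = 0.877 in edgeR). Its 95% interval ran between 0.61-fold and 2.43-fold, and its sign turned in 4 of 21 alternatives, among them all 3 fits of FPKM values.

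GLYMA_14G096800 was the HSFA2 gene with a moderate level in unstressed flowers. Its levels were 40.7, 35.4 and 44.1 CPM under WD + HS, 74.0, 70.7 and 66.8 CPM under HS, 13.4, 6.99 and 10.6 CPM under WD, and 9.32, 12.7 and 14.2 CPM under CT. The HS libraries were the highest, the WD + HS libraries formed a separate middle range, and WD and CT overlapped. Relative to CT, its log2 fold change came to 1.72 under WD + HS (SE 0.16, adjusted p = 5.49e-08 in edgeR) and 2.54 under HS (SE 0.16, adjusted p = 2.48e-10 in edgeR). WD + HS was at 0.57 of the HS level (log2 fold change -0.81, SE 0.15, adjusted p = 0.000705 in edgeR) and 3.93-fold above WD (log2 fold change 1.97, adjusted p = 2.41e-08 in edgeR). WD against CT gave -0.25 (adjusted p = 0.573 in edgeR). The interaction was -0.56 (SE 0.23, adjusted p = 0.252 in edgeR), and it was called without the second WD library (-0.79, adjusted p = 0.0264 in edgeR, where the alternatives ran between 0.0264 and 0.537).

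GLYMA_04G052000, the HSFA2 gene with the most transcripts in unstressed flowers, followed another pattern. It had 16.0, 17.6 and 17.9 CPM in the WD + HS libraries, against 62.8, 48.2 and 53.7 CPM under HS, 50.3, 21.8 and 32.9 CPM under WD, and 36.2, 48.2 and 58.4 CPM under CT. All WD + HS libraries lay below every other library, on 249 to 295 reads each, and HS, WD and CT overlapped each other. The gene fell under WD + HS against CT (log2 fold change -1.47, SE 0.21, adjusted p = 1.12e-05 in edgeR), against HS (-1.68, SE 0.21, adjusted p = 1.52e-05 in edgeR) and against WD (-1.02, SE 0.21, adjusted p = 0.000857 in edgeR). The last of these calls was lost in 1 alternative, limma on log2(FPKM + 1) without a filter, with a log2 fold change of -0.82 (adjusted p = 0.0737).

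Neither stress alone was called for GLYMA_04G052000. HS against CT gave 0.20 (adjusted p = 0.455 in edgeR), with a 95% interval between 0.87-fold and 1.52-fold. WD against CT gave -0.45 (adjusted p = 0.299 in edgeR), and without the first WD library, the highest of the WD group, this became a call at -0.82 (adjusted p = 0.00294 in edgeR, where the alternatives ran between 0.00294 and 0.699). The interaction was -1.22 (SE 0.29, adjusted p = 0.0185 in edgeR), since WD + HS was at 0.31 of the HS level and WD at 0.73 of the CT level. That call was lost in 8 of 22 alternatives: DESeq2 gave -1.23 (adjusted p = 0.0672), the fits of FPKM gave -1.16 to -1.09 (adjusted p = 0.181 to 0.287 in limma), and leaving out the first CT, second CT, first HS or first WD + HS library gave adjusted p = 0.0744, 0.0505, 0.0596 and 0.0669 in edgeR.

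**Figure D1:**
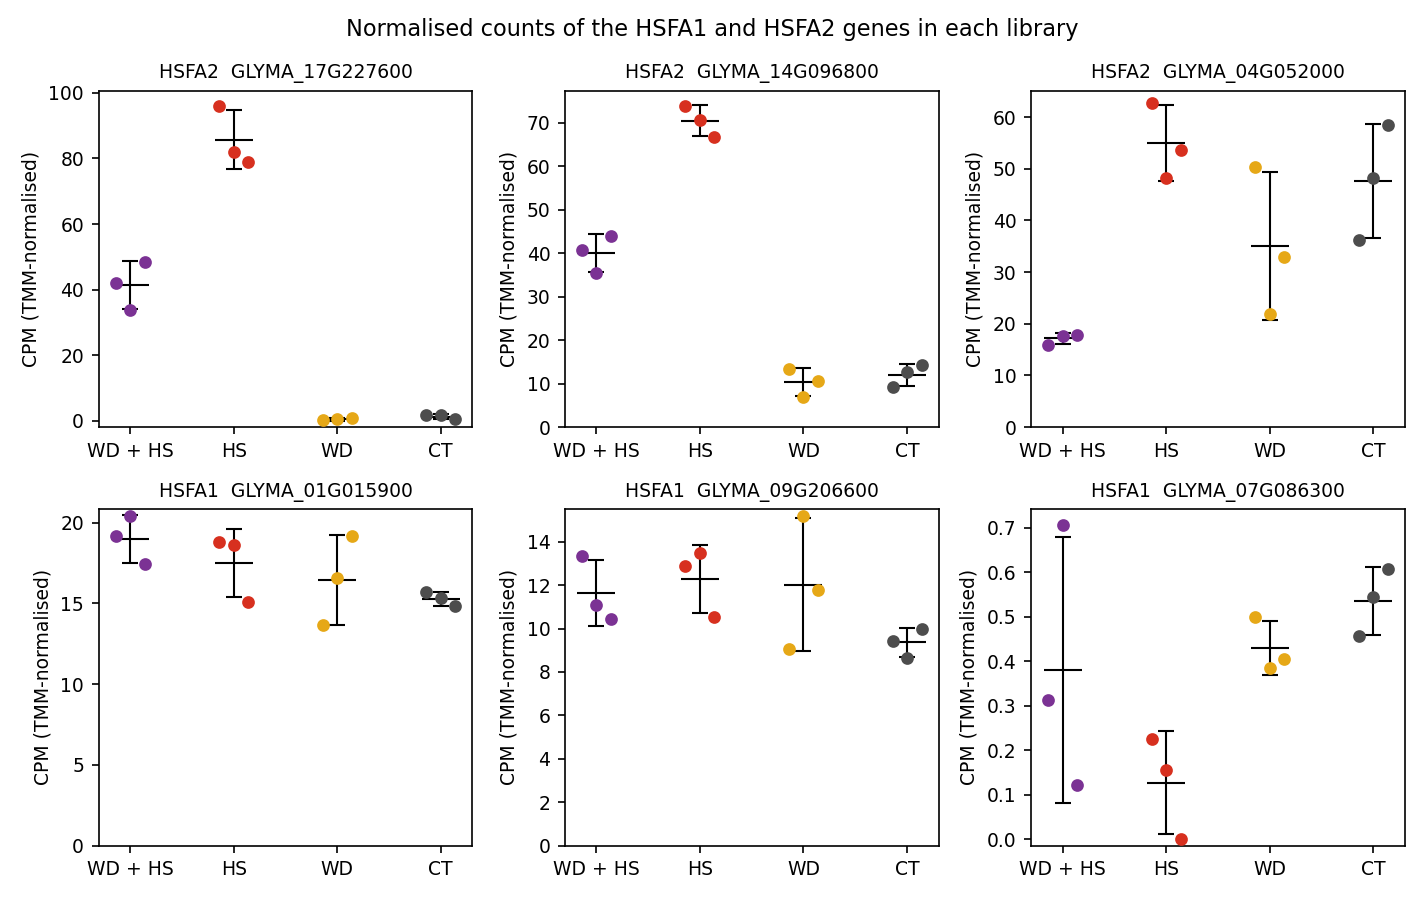
TMM-normalised CPM (y axes, each gene on its own scale) of the 3 HSFA2 genes (top) and the 3 HSFA1 genes (bottom) in WD + HS, HS, WD and CT flowers. Points are single libraries, and the line and bars are the mean and SD of 3 libraries. GLYMA_17G227600 and GLYMA_14G096800 are highest under HS with WD + HS between HS and CT, GLYMA_04G052000 is lowest under WD + HS, and GLYMA_07G086300 never exceeds 0.71 CPM.

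Of the HSFA1 genes, the 2 that could be tested averaged 15.3 to 19.0 CPM (GLYMA_01G015900) and 9.36 to 12.3 CPM (GLYMA_09G206600) across the 4 treatments. GLYMA_01G015900 averaged 19.0 ± 1.51 CPM under WD + HS, 17.5 ± 2.11 under HS, 16.5 ± 2.78 under WD and 15.3 ± 0.431 under CT (SD, n = 3 each). By library, these were 19.2, 20.4 and 17.4 CPM under WD + HS, 18.8, 18.6 and 15.1 under HS, 13.6, 16.6 and 19.2 under WD, and 15.7, 15.3 and 14.8 under CT. All WD + HS libraries lay above all CT libraries, and the other pairs of treatments overlapped. The difference between WD + HS and CT was 0.31 on the log2 scale (SE 0.13, adjusted p = 0.0705 in edgeR), with a 95% interval between 1.03-fold and 1.5-fold. It was called without the first WD library (adjusted p = 0.0459 in edgeR, where the alternatives ran between 0.0459 and 0.197). HS against CT gave 0.19 (interval between 0.95-fold and 1.38-fold, adjusted p = 0.28 in edgeR) and WD + HS against HS gave 0.12 (interval between 0.90-fold and 1.31-fold, adjusted p = 0.684 in edgeR).

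GLYMA_09G206600, the second HSFA1 gene, had 13.4, 11.1 and 10.4 CPM under WD + HS, 12.9, 13.5 and 10.5 CPM under HS, 9.07, 15.2 and 11.8 CPM under WD, and 9.45, 8.65 and 10.00 CPM under CT. Both sets of heat libraries lay above all CT libraries, and they overlapped with each other and with WD. HS against CT gave 0.39 (SE 0.17, adjusted p = 0.0877 in edgeR), with an interval between 1.02-fold and 1.68-fold, and it was called in 2 of 23 alternatives, limma on log2(FPKM + 1) and on log2(FPKM + 0.1) (adjusted p = 0.0457 and 0.0435, where the alternatives ran between 0.0435 and 0.25). WD + HS against CT gave 0.32 (adjusted p = 0.167 in edgeR) and WD against CT 0.37 (adjusted p = 0.348 in edgeR). The WD + HS level was 0.95 of the HS level, with an interval between 0.74-fold and 1.21-fold (adjusted p = 0.863 in edgeR).

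Over the 12 tests of these 2 HSFA1 genes, which leave out GLYMA_07G086300, edgeR called 0, with 3 at an unadjusted p under 0.05. Over all genes, edgeR called between 1.62% (WD against CT) and 36.8% (WD + HS against CT) in the same comparisons. The share of all genes at an unadjusted p under 0.05 was not counted. DESeq2 called 0, limma called 1 on log2(FPKM + 1), 1 on log2(FPKM + 0.1) and 0 on log2(FPKM + 1) without a filter. The intervals leave room for rises of up to 1.68-fold in heated flowers, and they do not reach the 3.30-fold rise of GLYMA_14G096800 under WD + HS.

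GLYMA_07G086300, the third HSFA1 gene, was hardly detected, and the filter on low counts left it out of the edgeR test. It had 5, 10 and 2 reads in the WD + HS libraries, 4, 3 and 0 reads in the HS libraries, 7, 7 and 6 reads in the WD libraries and 7, 12 and 10 reads in the CT libraries. In CPM, the HS libraries lay below the CT and WD libraries, and the WD + HS libraries overlapped with those of every other treatment. The count of 0 in the third HS library allows up to 3 reads, or 0.147 CPM. The FPKM values of the authors did not follow these counts. They were listed at 0 in 7 libraries that had reads, and they were 3.35 FPKM in the library with 0 reads, so its level is not ranked on either scale. Tests on the 2 kinds of values gave opposite signs. In WD + HS against WD, limma called it higher on log2(FPKM + 1), with a log2 fold change of 2.32 (adjusted p = 0.0114), on log2(FPKM + 0.1) (adjusted p = 0.014) and on log2(FPKM + 1) without a filter (adjusted p = 0.0292). In WD + HS against CT, limma called it on log2(FPKM + 1), at 1.72 (adjusted p = 0.0394), and not in the other 2 fits (adjusted p = 0.0554 and 0.0779). On the counts, edgeR without a filter on low counts gave -0.19 (adjusted p = 0.938) against WD and -0.52 (adjusted p = 0.733) against CT. In HS against CT, the same edgeR fit gave -2.04 (adjusted p = 0.142), where limma on log2(FPKM + 1) gave 0.11 (adjusted p = 0.908).

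Read against the whole transcriptome, the number of genes called differed by comparison. Under WD against CT, edgeR called 0 of the 5 genes tested, where 1.62% of all genes were called (0.937% higher and 0.682% lower). At an unadjusted p under 0.05 there were 3 of 5, and DESeq2 and the 3 limma fits called 0. The share of all genes at that unadjusted threshold was not counted, and the 1.62% is no measure of it. Under HS against CT, 2 of 5 were called, both higher, where 31.8% of all genes were called (15.9% higher and 16.0% lower). Under WD + HS against CT, 3 of 5 were called, 2 higher and 1 lower, where 36.8% of all genes were called (17.7% higher and 19.1% lower). The same numbers were found for WD + HS against WD, where 30.2% of all genes were called (13.7% higher and 16.4% lower). In these 3 comparisons so many genes were called that the number of calls alone says little of the 6.

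WD + HS against HS had 3 of 5 genes called, all of them HSFA2 genes and all lower, where 9.15% of all genes were called (3.21% higher and 5.94% lower). For the interaction, 1 of 5 was called, GLYMA_04G052000 below 0, where 2.95% of all genes were called (0.497% above 0 and 2.45% below 0). The 6 genes were chosen with earlier results of these data known, so these numbers are not independent evidence.

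**Figure D2:**
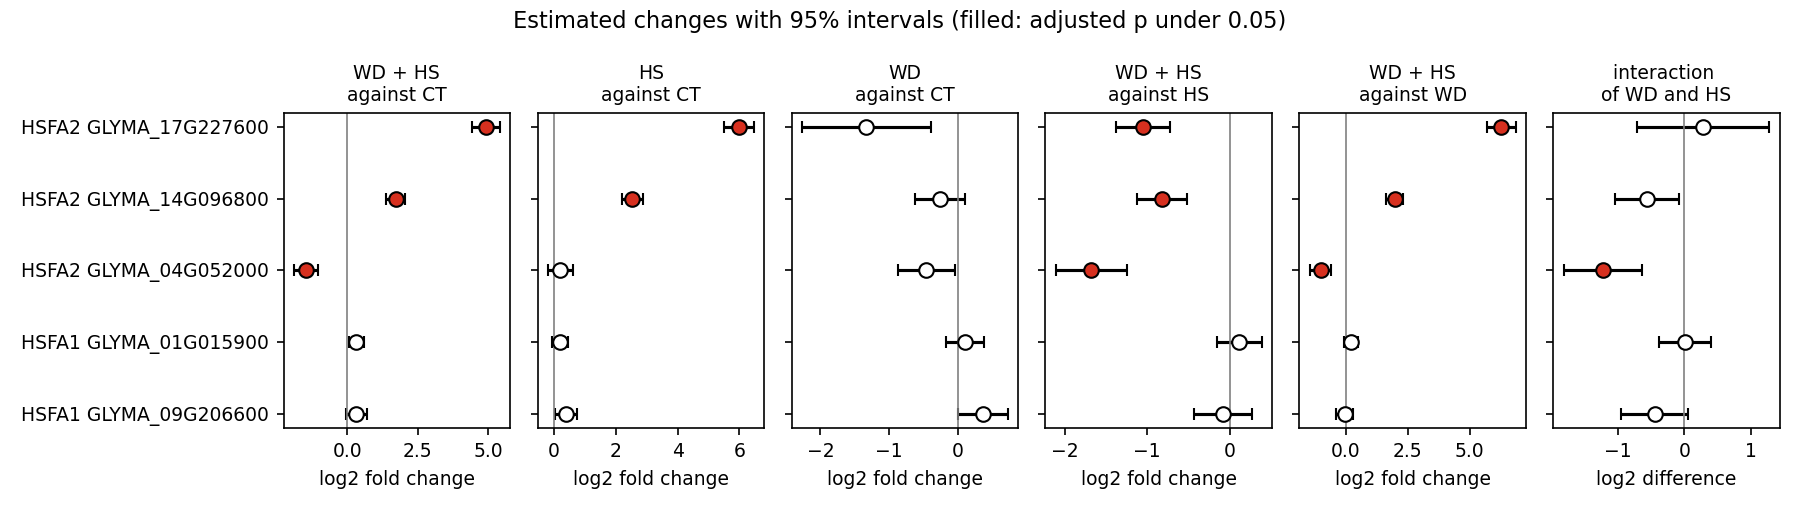
Log2 fold change (x axes, a different scale in each panel) of the 5 genes tested in the 5 comparisons between treatments, and their interaction (last panel). Bars are 95% intervals from edgeR, and filled points have an adjusted p under 0.05. The 3 HSFA2 genes are all below 0 in WD + HS against HS, and neither HSFA1 gene has a filled point.

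Levels of different genes were compared per length, with the FPKM values of the authors. Under WD + HS the order was GLYMA_17G227600 with 27.5 FPKM, GLYMA_14G096800 with 19.7, GLYMA_04G052000 with 9.33, GLYMA_01G015900 with 7.17 and GLYMA_09G206600 with 4.16, with no overlap between neighbours. GLYMA_07G086300 was listed at 4.51 FPKM on 17 reads in all and has no place in this order, since its FPKM values did not follow its counts. Under HS it was GLYMA_17G227600 with 60.7 FPKM, GLYMA_14G096800 with 35.7, GLYMA_04G052000 with 28.2, GLYMA_01G015900 with 7.21 and GLYMA_09G206600 with 4.73, again with no overlap between neighbours. Under HS, the heat-induced pair thus stood above the other 3 genes.

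Without heat the order was another one. Under WD, GLYMA_04G052000 led with 18.3 FPKM, ahead of GLYMA_01G015900 with 6.95, GLYMA_14G096800 with 4.86, GLYMA_09G206600 with 4.53 and GLYMA_17G227600 with 0.61, and the libraries of GLYMA_14G096800 and GLYMA_09G206600 overlapped. Under CT, GLYMA_04G052000 led with 24.0 FPKM, ahead of GLYMA_14G096800 with 6.54, GLYMA_01G015900 with 5.93, GLYMA_09G206600 with 3.42 and GLYMA_17G227600 with 1.03, and the libraries of GLYMA_14G096800 and GLYMA_01G015900 overlapped. GLYMA_07G086300 was listed at 0 FPKM in all WD libraries and in 2 of the CT libraries.

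Summed over the 3 HSFA2 genes, transcripts reached 56.5 ± 2.23 FPKM under WD + HS, 124.5 ± 9.98 under HS, 23.8 ± 9.01 under WD and 31.6 ± 9.0 under CT (SD, n = 3 each). The sum under WD + HS was 1.79 times that of CT and 0.453 of that under HS, and the sum under HS was 3.94 times that of CT. The WD + HS libraries lay between 54.0 and 58.2 FPKM, above the highest CT library at 41.6 and below the lowest HS library at 115.2. The HSFA2 pool also differed in its makeup. GLYMA_17G227600 made up 48.6% of the sum under WD + HS, 48.7% under HS, 2.96% under WD and 3.66% under CT. In CPM, its shares were 41.8% under WD + HS, 40.5% under HS, 1.33% under WD and 2.36% under CT, so that the small shares without heat differ by over 1.5 times between the scales. GLYMA_04G052000 made up 16.6% under WD + HS, 22.6% under HS, 75.8% under WD and 75.1% under CT. GLYMA_14G096800 held 34.8% under WD + HS, 28.7% under HS, and 21.3% in each of WD and CT. The 2 better detected HSFA1 genes together had 11.3 FPKM under WD + HS, 11.9 under HS, 11.5 under WD and 9.35 under CT.

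**Figure D3:**
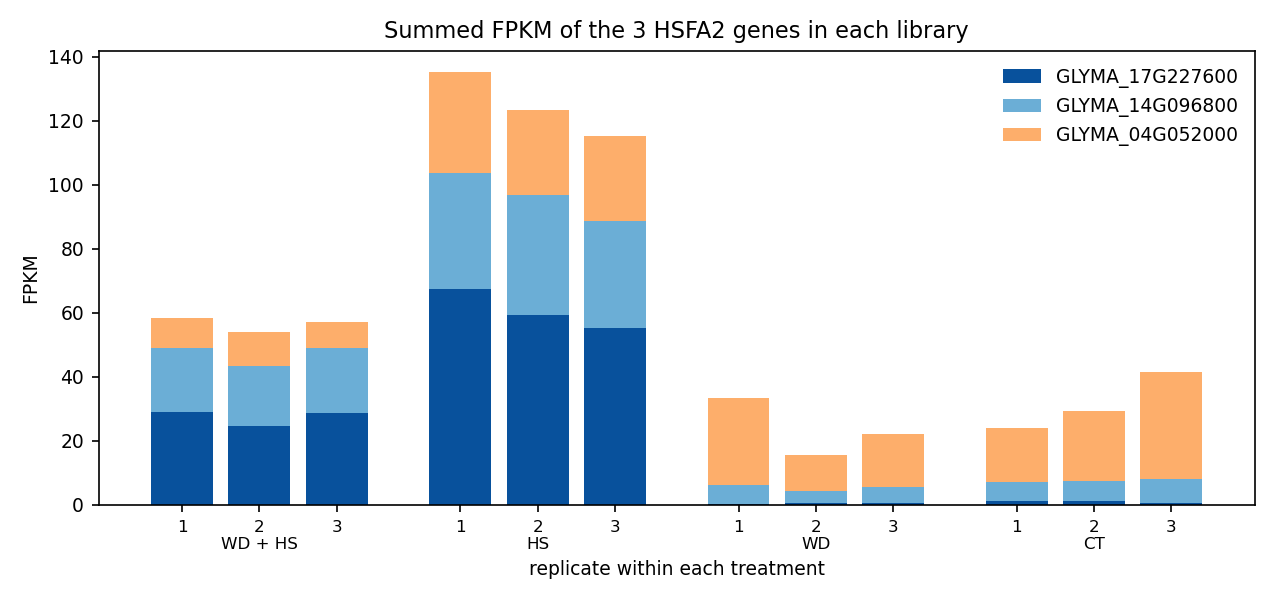
FPKM (y axis, starting at 0) of GLYMA_17G227600, GLYMA_14G096800 and GLYMA_04G052000 stacked in each library (x axis, replicates 1 to 3 of WD + HS, HS, WD and CT). The sum is highest in the HS libraries, at 115.2 to 135.1, and GLYMA_04G052000 makes up most of it in the WD and CT libraries.

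The supplement of the study describes 1 further gene as HSFA2 (GLYMA_17G053700) and 1 as HSFA1D (GLYMA_16G091800), neither of which is among the 6. GLYMA_17G053700 had 8.56, 7.56 and 8.38 CPM under WD + HS, 6.22, 7.72 and 6.39 under HS, 4.64, 4.24 and 3.50 under WD, and 4.95, 3.21 and 2.30 under CT. It rose against CT under WD + HS (log2 fold change 1.23, adjusted p = 0.000304 in edgeR) and HS (0.96, adjusted p = 0.00328 in edgeR). Its level under WD + HS was 1.21 times the HS level, with an interval between 0.87-fold and 1.66-fold (adjusted p = 0.557 in edgeR), an interval that lies wholly above those of the 3 HSFA2 genes in the same comparison. GLYMA_16G091800 had 5.99, 6.92 and 6.31 CPM under WD + HS, 7.63, 6.84 and 5.45 under HS, 2.00, 3.47 and 3.23 under WD, and 4.89, 2.67 and 3.33 under CT. Against CT it rose both with WD + HS (0.83, adjusted p = 0.0129 in edgeR) and with HS (0.88, adjusted p = 0.0096 in edgeR). In edgeR, 1 gene described as HSFA1 was thus called in heat, although the 2 HSFA1 genes tested among the 6 were not.

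These genes belong to a list of 12 other heat shock factors, taken from the gene descriptions in the supplement. Those descriptions cover genes that the study had called on these same samples. In this and the next 3 lists, neither the share called nor its direction is therefore independent evidence. The shares of all genes are given beside them as a description only. Of the 12, 5 rose (41.7%) and 2 fell (16.7%) under WD + HS against CT, where 17.7% of all genes rose and 19.1% fell. Under HS against CT, 10 rose (83.3%) and 1 fell (8.33%), where 15.9% of all genes rose and 16.0% fell. The median log2 fold changes were 0.70 and 1.00, and over all genes tested they were 0.01 in both comparisons. In WD + HS against HS, where 3.21% of all genes rose and 5.94% fell, 0 rose and 3 fell (25%), with a median of -0.25. The largest of those 3 falls was in HSFA6B GLYMA_10G029600, at -2.59 (adjusted p = 5.15e-07 in edgeR), with 3.11 CPM under WD + HS, 18.6 under HS, 4.37 under WD and 8.84 under CT. This gene was also lower under WD + HS than under CT (-1.51, adjusted p = 5.97e-05 in edgeR), as GLYMA_04G052000 was. GLYMA_10G029600 rose under HS (1.08, adjusted p = 0.000596 in edgeR) and fell under WD alone (-1.03, adjusted p = 0.0279 in edgeR). GLYMA_04G052000 was called in neither, at 0.20 and -0.45, and the difference between the 2 genes was not tested. In WD + HS against WD, GLYMA_10G029600 was not called (-0.48, adjusted p = 0.178 in edgeR). HSFB2A GLYMA_20G156800, of the class that lacks the activation domain of class A, had 8.40 CPM under WD + HS, 16.2 under HS, 7.52 under WD and 8.15 under CT. The HSF4 genes GLYMA_01G185800 and GLYMA_11G056200 had 14.9 and 9.33 CPM under WD + HS, 20.4 and 13.4 under HS, 8.83 and 6.94 under WD, and 10.1 and 7.93 under CT.

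Small heat shock proteins are chaperones that hold unfolding proteins in solution, and their genes are classic targets of HSFA2 in Arabidopsis. Of 45 listed genes, 43 were tested. Under WD + HS against CT, where 17.7% of all genes rose and 19.1% fell, 37 rose (86%) and 0 fell (median log2 fold change 1.98). Under HS against CT, where 15.9% of all genes rose and 16.0% fell, all 43 rose, with a median of 3.10. In WD + HS against HS, where 3.21% of all genes rose and 5.94% fell, 3 rose (6.98%) and 28 fell (65.1%), with a median of -0.915. Their summed level was 2422, 2032 and 2549 CPM under WD + HS, 3963, 4064 and 3509 under HS, 778.6, 499.3 and 663.5 under WD, and 664.2, 761.2 and 922.0 under CT. As for the summed HSFA2 genes, the WD + HS libraries lay between the HS and the CT libraries without overlap. The HSP20-like genes GLYMA_13G176300, GLYMA_07G200200 and GLYMA_13G176200 had 407, 356 and 271 CPM under WD + HS, 634, 575 and 407 under HS, 115, 107 and 12.0 under WD, and 130, 137 and 14.5 under CT. The mitochondrial GLYMA_12G013100 had 201 CPM under WD + HS, 490 under HS, 204 under WD and 242 under CT, so that it rose under HS (1.02, adjusted p = 0.000101 in edgeR) but was not called under WD + HS against CT (-0.27, adjusted p = 0.223 in edgeR).

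The larger chaperones HSP70, HSP90 and HSP101 refold or disaggregate proteins, and HSP70 and HSP90 also hold HSFA1 inactive in tomato. Of these 9 genes, 3 rose (33.3%) and 3 fell (33.3%) under WD + HS against CT, with a median of 0.27, where 17.7% of all genes rose and 19.1% fell. Under HS against CT, where 15.9% of all genes rose and 16.0% fell, 6 rose (66.7%) and 2 fell (22.2%), with a median of 1.85. In WD + HS against HS, where 3.21% of all genes rose and 5.94% fell, 0 rose and 8 fell (88.9%), with a median of -1.51. The HSP90.1 genes GLYMA_09G131500 and GLYMA_16G178800 had 214 and 107 CPM under WD + HS, 799 and 524 under HS, 111 and 70.2 under WD, and 170 and 123 under CT. Both rose under HS (2.23 and 2.09, adjusted p = 1.74e-07 and 4.52e-08 in edgeR), and neither was called under WD + HS against CT (0.33 and -0.19, adjusted p = 0.251 and 0.44 in edgeR). HSP70B GLYMA_17G072400 had 158 CPM under WD + HS, 321 under HS, 9.23 under WD and 11.0 under CT. The means of GLYMA_17G227600 and GLYMA_14G096800 had the same order, and WD against CT was not called in any of these 3 genes. HSP101 GLYMA_06G202200 had 39.7 ± 4.83 CPM under WD + HS, 115 ± 11.2 under HS, 63.2 ± 34.9 under WD and 112 ± 68.4 under CT (SD, n = 3 each). Its CT libraries spread widely, between 71.3 and 191 CPM. Like GLYMA_04G052000 it was called lower under WD + HS against CT (-1.5, adjusted p = 0.000837 in edgeR) and not called under HS (0.04, adjusted p = 0.941 in edgeR). It was not called in WD + HS against WD (-0.66, adjusted p = 0.126 in edgeR) or in the interaction (-0.70, adjusted p = 0.541 in edgeR). GLYMA_04G052000 was called in both, in the same direction, at -1.02 and -1.22. The difference between the 2 genes was not tested. The HSP101 gene GLYMA_05G022200 was named after its values were seen. It rose under HS (1.85, adjusted p = 2.56e-07 in edgeR) and was not called under WD + HS against CT (0.27, adjusted p = 0.282 in edgeR).

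Of 8 other heat-response genes, 7 rose (87.5%) and 1 fell (12.5%) under WD + HS against CT, with a median of 1.85, where 17.7% of all genes rose and 19.1% fell. Under HS against CT, where 15.9% of all genes rose and 16.0% fell, all 8 rose, with a median of 1.61. In WD + HS against HS, where 3.21% of all genes rose and 5.94% fell, 2 of the list rose (25%) and 3 fell (37.5%), with a median of -0.30. Both that rose encode galactinol synthase 1, which starts the synthesis of raffinose sugars and is a target of HSFA2 in Arabidopsis. GLYMA_20G094500 had 60.3 CPM under WD + HS, 30.3 under HS, 15.9 under WD and 14.6 under CT (WD + HS against HS 0.99, adjusted p = 1.24e-05 in edgeR), and GLYMA_10G145300, named after its values were seen, gave 2.66 (adjusted p = 6.35e-06 in edgeR). The galactinol synthase 1 gene GLYMA_19G219100 went the other way, with 27.5 CPM under WD + HS, 50.8 under HS, 7.79 under WD and 8.78 under CT (-0.89, adjusted p = 0.00497 in edgeR). The co-activator gene MBF1B GLYMA_12G129100 had 118 CPM under WD + HS, 123 under HS, 66.5 under WD and 65.0 under CT. Rotamase FKBP 1 GLYMA_03G086200 had 134 CPM under WD + HS, 302 under HS, 166 under WD and 178 under CT, and fell under WD + HS against CT (-0.41, adjusted p = 0.00311 in edgeR).

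Under WD against CT, 0 genes rose in any of the 4 lists, where 0.937% of all genes were called higher, and calls were few in number. There fell 1 of 12 other heat shock factors (8.33%), 3 of 43 small heat shock protein genes (6.98%), 1 of 9 larger chaperones (11.1%) and 0 of 8 other heat-response genes, where 0.682% of all genes were called lower.

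**Figure D4:**
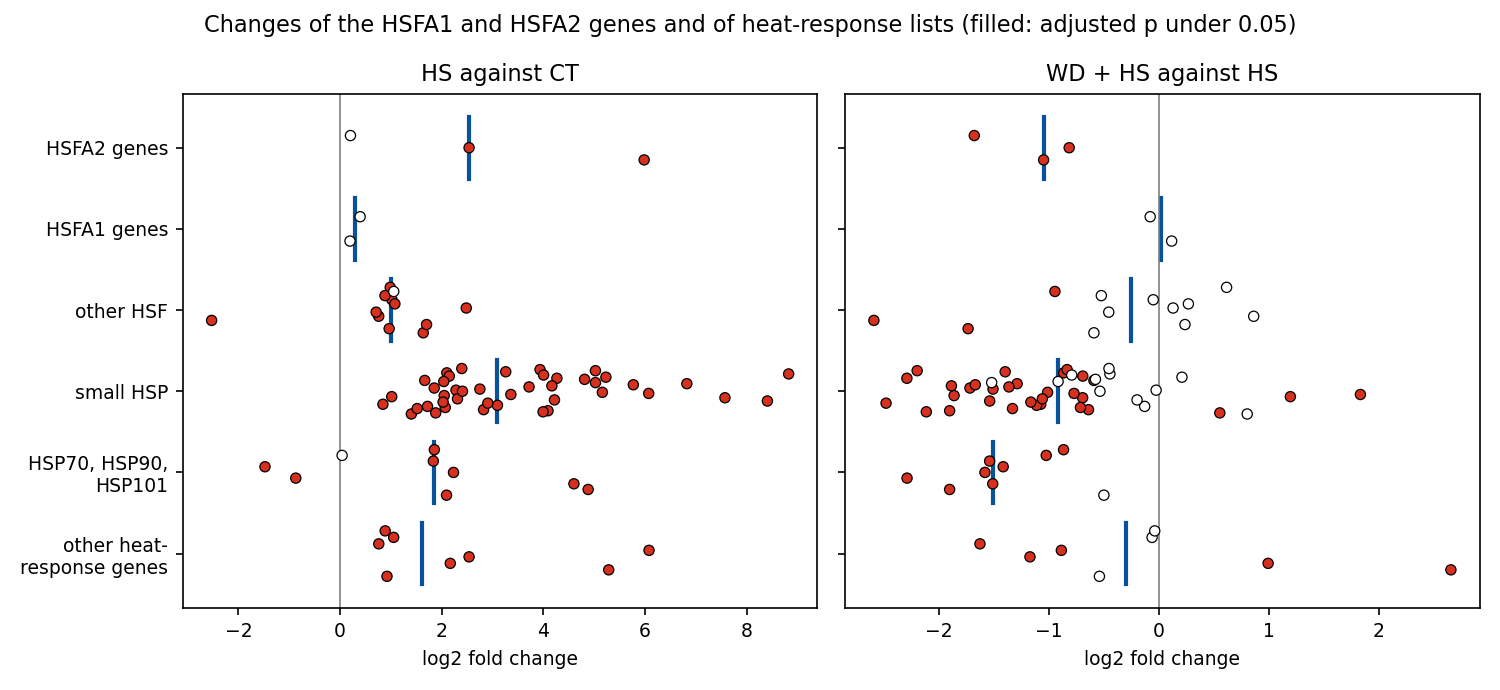
Log2 fold change (x axes) of single genes in HS against CT (left) and WD + HS against HS (right) for the HSFA2 and HSFA1 genes tested and the 4 lists (rows, with points spread vertically only to separate them). Blue lines are medians, and filled points have an adjusted p under 0.05 in edgeR. On the right, the 3 HSFA2 genes lie among the small heat shock protein genes (median -0.915) and the larger chaperones (median -1.51), and the HSFA1 genes lie near 0.

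The genes whose log2 CPM over the 12 libraries was most like that of each heat shock factor were looked up among genes that averaged 5 CPM or more. For GLYMA_17G227600 and GLYMA_14G096800, these correlations mostly follow the separation of heated from unheated flowers, which the libraries share. All of the correlations are given as a description. The closest to GLYMA_14G096800 were the class II small heat shock protein gene GLYMA_06G054700 (Pearson r = 0.997) and the HSP20-like gene GLYMA_07G200200 (r = 0.996). The first of these averaged 99.5 CPM under WD + HS, 169.8 under HS, 22.5 under WD and 25.2 under CT. For GLYMA_17G227600 they were GLYMA_01G074000 (r = 0.989), described as histone mono-ubiquitination 1, and GLYMA_03G262700 (r = 0.988). GLYMA_01G074000 had 59.4 CPM under WD + HS, 69.2 under HS, 31.9 under WD and 35.0 under CT, a far smaller span than that of the heat shock factor.

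For GLYMA_04G052000 the closest genes were GLYMA_03G042600 (r = 0.972), described as RNI-like, with 8.08 CPM under WD + HS, 19.7 under HS, 12.6 under WD and 16.5 under CT, and GLYMA_15G266100 (r = 0.966). The HSFA1 genes had looser matches. They were GLYMA_14G212500 (r = 0.958) and GLYMA_13G170400 (r = 0.932) for GLYMA_01G015900, and GLYMA_17G001500 (r = 0.904) and GLYMA_11G242300 (r = 0.898) for GLYMA_09G206600. For the hardly detected GLYMA_07G086300, GLYMA_03G260500 (r = 0.919) and GLYMA_01G205700 (r = 0.916) came first, and with so few reads these matches are no finding.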

How the data were processed

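Paired-end RNA-seq reads of closed flowers were trimmed, aligned by the authors with HISAT2 (version 2.2.1 per the labels) to the Ensembl Plants assembly of soybean, and deposited as raw read counts per gene and as FPKM values, which the authors obtained per library from Cufflinks. The counting program, its strand setting and its handling of reads that match several genes are not given in the sources used here, so reads of near-identical gene copies may be split between the genes of this polyploid genome.

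Libraries were assigned to treatments by their labels. Differential expression was tested with edgeR 4.0.16 in R 4.3.3 (low counts removed by filterByExpr at a minimum count of 10, TMM factors of 0.979 to 1.03, quasi-likelihood test, 1 fit of 4 groups without a replicate block). Benjamini-Hochberg adjustment ran over 38410 genes, with a threshold of 0.05 and no minimum fold change. Standard errors (SE) were derived from the log2 fold change and the F statistic, as |log2 fold change|/√F. The procedure was tested on simulated data. Depth was 14049107 to 22415845 reads per library. The variance between replicates was 3.55 to 12.1 times the counting error, and no 2 libraries differed by less than sampling noise. P-values measure the spread between pools of flowers.

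The text names all 6 genes, the 2 genes most like each (Pearson r of log2 CPM with a prior count of 2), up to 4 genes of highest mean CPM in each list, and GLYMA_17G053700 and GLYMA_16G091800. Members and lists were chosen with earlier results of these data known. Lists came from gene descriptions in the supplement, and identifiers matched the RefSeq gene table for 0 of 6 genes. Gene levels were compared with each other only in the deposited FPKM values.

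Alternatives were DESeq2 1.42.0, upper-quartile factors, no factors, a filter of 10 counts in each library or no filter at all, a replicate block, only the libraries compared, an absolute log2 fold change of at least 1, limma-trend of limma 3.58.1 with log2(FPKM + 1) or log2(FPKM + 0.1) for genes with at least 1 FPKM in 3 libraries and on log2(FPKM + 1) without a filter, CPM in place of FPKM for sums, and each library left out in turn. Leaf data, hormone measurements and RT-qPCR were not used here.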

Additional observations from a re-analysis of the deposited data

Results flagged for a closer look

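The HSFA2 gene GLYMA_04G052000 responded differently to water deficit in heated and in unheated flowers by a test of the difference itself, the interaction of WD and HS (-1.22 on the log2 scale, adjusted p = 0.0185 in edgeR). WD + HS was at 0.31 of the HS level, and WD at 0.73 of the CT level. Both the heated and the unheated contrast pointed down, and the call was lost in 8 of 22 alternatives.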

How the results depend on the processing

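Of 679 single-gene results under the alternatives, 644 kept their direction and their side of the threshold, 10 lost a call, 6 gained one and 19, none of them called, turned their sign. The calls of GLYMA_17G227600 and GLYMA_14G096800 in HS and WD + HS against CT and in WD + HS against WD held in every alternative that tested them. The number of genes called under WD against CT was 0, but 1 with no filter beyond 1 count in total (GLYMA_17G227600, -1.34, adjusted p = 0.0433 in edgeR), and 0 to 1 with each library left out. Under HS against CT it was 1 in place of 2 with at least 10 counts in every library, a filter that GLYMA_17G227600 itself failed, and 3 in limma on log2(FPKM + 1) and log2(FPKM + 0.1), where GLYMA_09G206600 was added. Over all alternatives it ran between 2 and 4 in WD + HS against CT and against WD, and between 2 and 3 in WD + HS against HS. The counts of 4 included GLYMA_07G086300 in the limma fits and GLYMA_01G015900 without the first WD library. For the interaction it was 0 in place of 1 with DESeq2 and the 3 limma fits, and 0 to 2 with each library left out. GLYMA_14G096800 in WD + HS against HS missed an absolute log2 fold change of 1, at -0.81.

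No sign that turned belonged to a called difference. For GLYMA_01G015900, WD + HS against HS was -0.00516, -0.00548 and -0.00516 in the limma fits. Its interaction was -0.012 without factors, -0.0021 with at least 10 counts in every library and -0.21, -0.24 and -0.21 in the limma fits. The interaction of GLYMA_17G227600 was -0.79, -0.51 and -0.79 in the limma fits (adjusted p = 0.0656, 0.504 and 0.117), against 0.28 in edgeR, which is a large shift. With each library left out, the interaction ran between -0.088 and 1.05 for GLYMA_17G227600 and between -0.089 and 0.13 for GLYMA_01G015900, and WD against CT between -0.014 and 0.21 for GLYMA_01G015900. For GLYMA_09G206600, WD + HS against HS ran between -0.19 and 0.00271 and WD + HS against WD between -0.20 and 0.16. The cause of these turns was not tested.

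The replicate numbers did not pair the libraries: of 18 pairs with the same number, the deviations of 1 correlated above 0.1 (range -0.10 to 0.10), and with a replicate block the number of genes called was 0 for WD, 2 for HS and 3 for WD + HS against CT, 3 for WD + HS against HS, 3 for WD + HS against WD and 1 for the interaction, as without it. Leaving out each library, an alternative added after seeing the data, left 42 to 43 small heat shock protein genes called higher under HS and 23 to 28 called lower under WD + HS against HS. Depth limits GLYMA_07G086300 and the levels of GLYMA_17G227600 without heat.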

Other observations

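Among the 6 libraries at 28 °C, the level of the HSFA2 gene GLYMA_04G052000 varied more than 2-fold. In falling order it was 58.4 CPM in the third CT library, 50.3 in the first WD library, 48.2 in the second CT library, 36.2 in the first CT library, 32.9 in the third WD library and 21.8 in the second WD library. The summed level of the HSP70, HSP90 and HSP101 genes in the same order of libraries was 913.8, 527.8, 520.4, 465.0, 366.3 and 258.6 CPM. That of the small heat shock protein genes was 922.0, 778.6, 761.2, 664.2, 663.5 and 499.3 CPM. Both sums therefore fell in the same order of libraries as GLYMA_04G052000. The sums of the other lists did not, with 58.3, 51.2, 50.0, 56.0, 42.8 and 41.6 CPM for the other heat shock factors and 285.3, 305.4, 297.3, 258.7, 268.7 and 240.2 CPM for the other heat-response genes. Nor did GLYMA_17G227600, with 0.61, 0.14, 1.68, 1.69, 1.01 and 0.44 CPM, which rest on 2 to 37 reads. The HSFA2 gene GLYMA_14G096800 nearly kept the order, with 14.2, 13.4, 12.7, 9.32, 10.6 and 6.99 CPM. Only its libraries at 9.32 and 10.6 CPM changed places, so the order is not particular to GLYMA_04G052000. The order of GLYMA_04G052000 was noticed after the values were seen, libraries of both treatments are mixed in it, and its source was not tested.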
